A study of Homo sapiens with 36 samples.

Results

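Integrin and laminin chains were measured in human neural stem cells (hNSC) in which MEIS1 or MEIS2, paralogous homeobox transcription factors, had been raised or disrupted. The chains are all genes in the count table with a symbol of the form ITGA or ITGB followed by a chain number or one of the letters D, E, L, M, V and X, or LAMA, LAMB or LAMC followed by a digit. This rule found 37 of the 28516 listed genes, of which 25 are integrin and 12 are laminin chains. ITGA2B, whose symbol ends in a letter after the number, is outside the rule. Of the 37 chains, 34 had at least 10 counts summed over all libraries and were tested, whereas ITGA8, ITGAD and ITGB6 were below that minimum.

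The cells were grown on Geltrex, a basement membrane extract that itself contains laminin, received lentiviral vectors and were harvested after 48 h. MEIS1-OE and MEIS2-OE cells received CRISPR-activation (guide RNA, dCas9-VP64 and the MPH activator complex on 3 viruses) aimed at the named gene, and ctrl-OE received the same system with a non-targeting guide. For MEIS1-KO and MEIS2-KO, vectors that hold both Cas9 and a guide were used, with 2 guides against the named gene mixed in equal parts, and ctrl-KO received that vector with a non-targeting guide. Each of the 6 groups held 6 libraries. All groups thus carry a CRISPR system, activation and knockout differ in the number and kind of viruses as well as in the MEIS genes, and the knockout groups are mixed cell populations rather than single clones.

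Integrins are pairs of an alpha and a beta chain that span the cell membrane and tie the matrix outside the cell to the actin skeleton inside it. Laminins are trimers of an alpha, a beta and a gamma chain and form, with nidogen, collagen IV and perlecan, the basement membrane on which neural stem cells sit. The alpha chain of an integrin largely sets what is bound: alpha3, alpha6 and alpha7 bind laminin, alpha5 and alphaV bind proteins with an RGD motif such as fibronectin, and alpha1, alpha2, alpha10 and alpha11 bind collagen.

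The libraries held 15429985 to 22940493 counted reads (median 20324720). MEIS1 ranged from 287 to 323 CPM (counts scaled to library size) in MEIS1-OE and from 15.7 to 18.8 CPM in ctrl-OE, and from 6.43 to 11.2 CPM in MEIS1-KO and 23.7 to 28.0 CPM in ctrl-KO. MEIS2 ranged from 793 to 852 CPM in MEIS2-OE against 20.5 to 24.1 CPM in ctrl-OE, and from 10.5 to 13.4 CPM in MEIS2-KO against 23.5 to 27.4 CPM in ctrl-KO. All 10 neural stem cell markers looked up had counts in every group, with sums of 3059 to 4366 CPM over the activation libraries and 4565 to 6240 CPM over the knockout libraries. No library was a copy of another. MEIS1-OE replicate 3 lay farthest from the other libraries of its group, with a root mean square distance of 0.343 on the log2 scale over 11114 genes. MEIS1-KO replicate 6 (0.326) and ctrl-OE replicate 6 (0.284) followed, and the other libraries were at 0.0925 to 0.240. Calls against ctrl-OE or MEIS2-OE that change without MEIS1-OE replicate 3 alone are given with those values, whereas the other pair was left out only together, with number 6 of every group. The labels do not say that the libraries of a group came from separate cultures, so p-values measure the spread between these libraries, which may be technical.

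In ctrl-KO the chains with counts spanned more than 4 orders of magnitude when CPM was divided by the exon length of the gene, the scale on which levels of different genes can be compared. LAMC1, the gamma chain of most laminins, stood first at 186 ± 6.41 CPM per kilobase (SD, n = 6). ITGB1, the beta chain shared by most matrix-binding integrins, followed at 41.2 ± 2.29 CPM per kilobase. LAMB2 with 23.1 ± 3.26 and LAMA1 with 19.9 ± 2.02 CPM per kilobase came next, and the ranges of these laminin chains overlapped. ITGA5 with 15.5 ± 1.38 and ITGA6 with 15.3 ± 0.806 CPM per kilobase did not differ beyond their spread either. ITGB5, a partner of alphaV, had 12.5 ± 0.707 CPM per kilobase and its range reached into that of ITGA5. Below it stood LAMB1 at 10.6 ± 0.262, ITGAV at 8.06 ± 0.155 and ITGA7 at 6.22 ± 0.459 CPM per kilobase, each without overlap with its neighbours in the order. Thus chains of a laminin trimer (LAMA1, LAMB1 or LAMB2, and LAMC1) and chains of laminin and fibronectin receptors led the list. With the longest transcript as the length in place of all exons, LAMC1 and ITGB1 kept the first and second rank, LAMB1 rose to 29.4 CPM per kilobase and the fourth rank, and LAMB2 stood next below it.

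**Figure D1:**
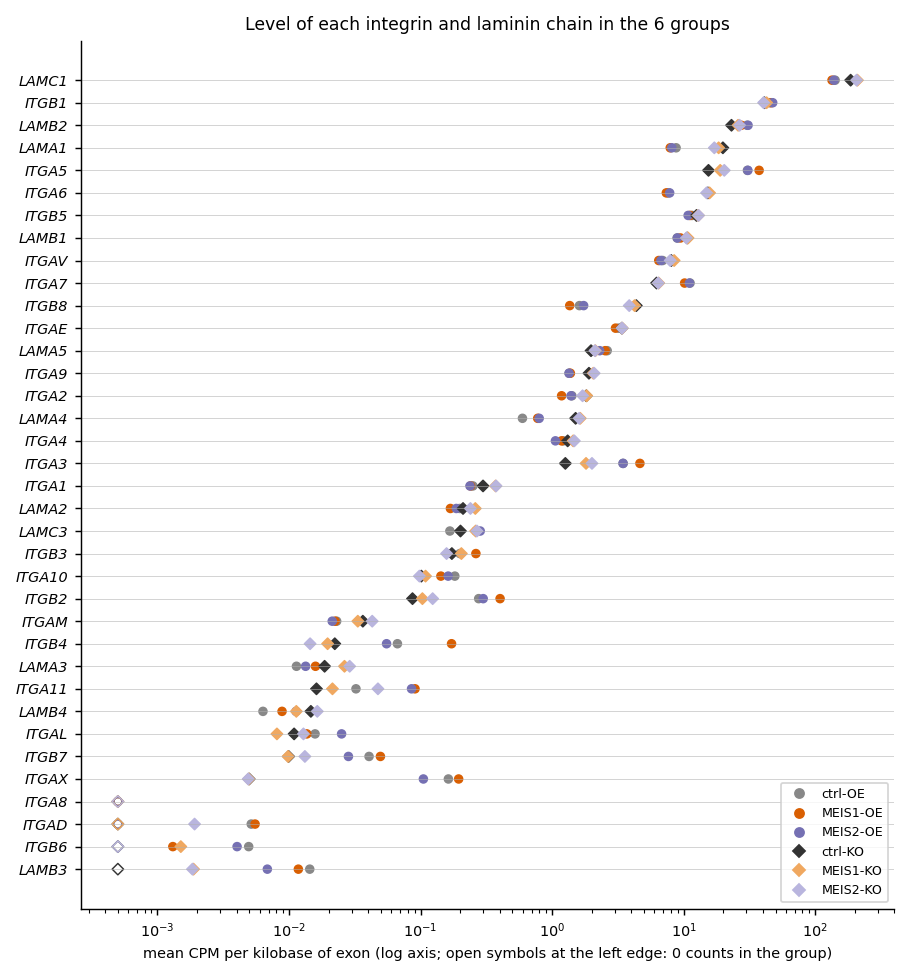
Mean CPM per kilobase of exon (horizontal log axis) of the chains in the 6 groups, sorted by ctrl-KO. Circles are activation groups and diamonds knockout groups. Activation symbols lie apart from knockout symbols for ITGAX, ITGB4, ITGB2, ITGB8, LAMA1, LAMA4 and ITGA3, among others, and open symbols at the left edge have 0 counts.

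The other roles were led in ctrl-KO by ITGA2, a collagen receptor chain, at 1.82 ± 0.170 CPM per kilobase, by ITGA9, which binds tenascin and osteopontin, at 1.91 ± 0.0640, by ITGAE, best known from lymphocytes in epithelia, at 3.39 ± 0.154, and by ITGB2, the beta chain of leukocyte integrins, at 0.0869 ± 0.0235 CPM per kilobase. ITGA8 had 0 counts in all 36 libraries. ITGAD had 3 counts each in ctrl-OE and MEIS1-OE and 1 in MEIS2-KO, and ITGB6 had at most 4 counts in any group. ITGAM, ITGAL, LAMA3 and LAMB4 had a median of at most 0.451 CPM in every group, so changes in them were hard to detect at this depth, and none of the 4 was called in any comparison.

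The largest differences among the chains were between the control groups, ctrl-OE and ctrl-KO, which carry non-targeting guides. By the quasi-likelihood test of edgeR, adjusted over all tested genes after Benjamini and Hochberg (a gene is called at an adjusted p under 0.05), 12 of the 34 tested chains were higher and 10 lower in ctrl-OE. Over all 19689 tested genes 27.5% were called higher and 23.9% lower, so a call in this comparison was common among all genes. The median log2 fold change was -0.09 for the chains and 0.05 for all tested genes. TMM factors were 1.02 to 1.08 in ctrl-OE libraries and 0.936 to 0.965 in ctrl-KO libraries. Small fold changes between the controls therefore depend on the scaling of the libraries, although RLE size factors also called 12 chains higher and 10 lower. The CRISPR system, the number of viruses and any difference between the cultures cannot be told apart in this comparison. In bulk RNA, moreover, fewer cells of a type and less RNA per cell cannot be told apart. Marker lists moved between the same groups: the summed levels in ctrl-OE and ctrl-KO were 3128 to 4058 and 4565 to 5110 CPM for 10 neural stem cell markers, 405 to 587 and 969 to 1013 CPM for 8 neuronal, 105 to 126 and 246 to 270.1 CPM for 6 astrocyte, 27.8 to 30.2 and 32.8 to 39.5 CPM for 7 oligodendrocyte lineage, 107 to 135 and 170 to 186 CPM for 7 endothelial and 347 to 546 and 713 to 927 CPM for 7 mesenchymal markers. All 6 sums were lower in ctrl-OE without overlap, but not all of their members: of the mesenchymal markers 3 were lower, among them COL3A1, which leads the sum with 143 to 236 and 497 to 643 CPM, and COL1A1 was higher, and of the astrocyte markers 3 were lower and GFAP was higher. The part of these cells in the differences between chains was not tested.

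**Figure D2:**
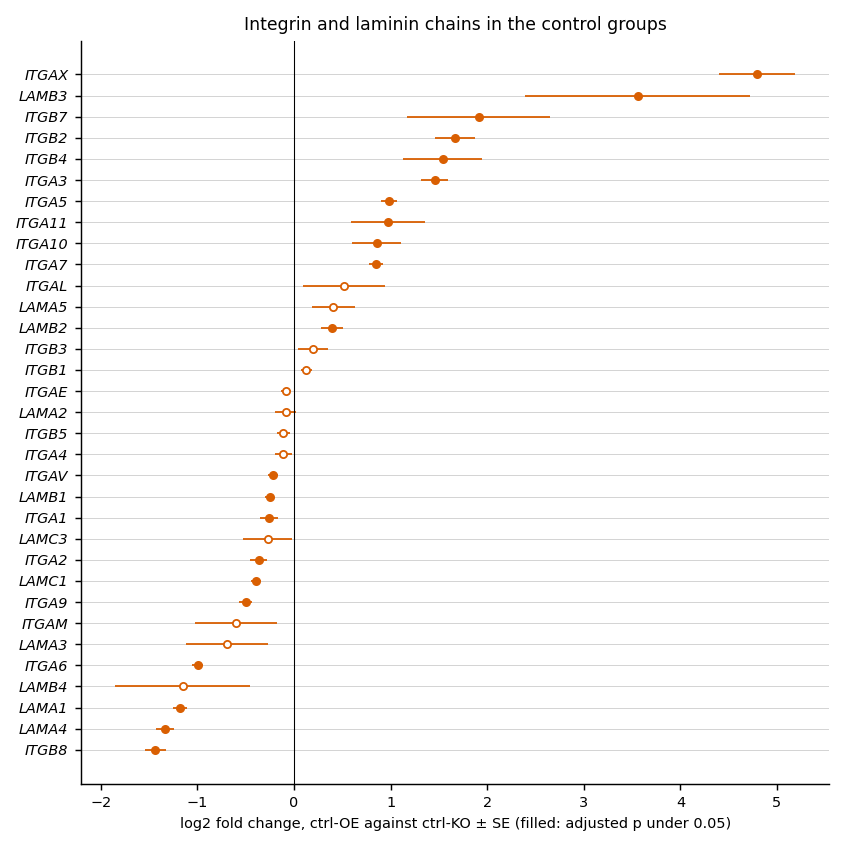
Log2 fold change of tested chains between ctrl-OE and ctrl-KO (horizontal axis), with SE bars and filled symbols at an adjusted p under 0.05. ITGAX, LAMB3 and ITGB7 stand at the upper end and ITGB8, LAMA4 and LAMA1 at the lower end.

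Among the laminin-binding alpha chains, ITGA6 fell and both ITGA3 and ITGA7 rose in ctrl-OE. ITGA6 (chromosome 2, 173292082 to 173371187, GRCh37), the alpha chain of the main laminin receptor of stem cells, was lowest at 47.8, median 50.3 and highest at 56.0 CPM in ctrl-OE, and 94.2, 101.6 and 108.6 CPM in ctrl-KO. The groups did not overlap, and the log2 fold change was -0.999 ± 0.0539 (SE, adjusted p = 2.52e-18). ITGA7, a laminin receptor chain known from muscle, had 93.8, 100.5 and 112 CPM in ctrl-OE and 50.7, 56.1 and 61.7 CPM in ctrl-KO, again without overlap (log2 fold change 0.85 ± 0.0740, adjusted p = 1.83e-12). ITGA3 (chromosome 17, 48133332 to 48167845) had 29.1, 33.3 and 40.0 CPM in ctrl-OE and 10.9, 12.1 and 15.1 CPM in ctrl-KO (log2 fold change 1.46 ± 0.138, adjusted p = 1.49e-11), and every ctrl-OE library was above every ctrl-KO library.

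As a share of the summed CPM per kilobase of these 3 chains, ITGA6 held 62.8% to 70.8% (median 67.6%) in ctrl-KO libraries and 31.1% to 38.6% (median 34.3%) in ctrl-OE libraries. ITGA7 held 24.3% to 30.3% in ctrl-KO and 47.7% to 52.2% in ctrl-OE, and ITGA3 4.85% to 6.88% and 13.7% to 16.7%. The chain with the highest share was therefore ITGA6 in ctrl-KO and ITGA7 in ctrl-OE, and the MEIS1 and MEIS2 groups of each system had the same leading chain as their control in their medians. With the longest transcript as length the median share of ITGA6 was 53.0% in ctrl-KO and 22.2% in ctrl-OE. These shares are given as a description, with no test.

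**Figure D3:**
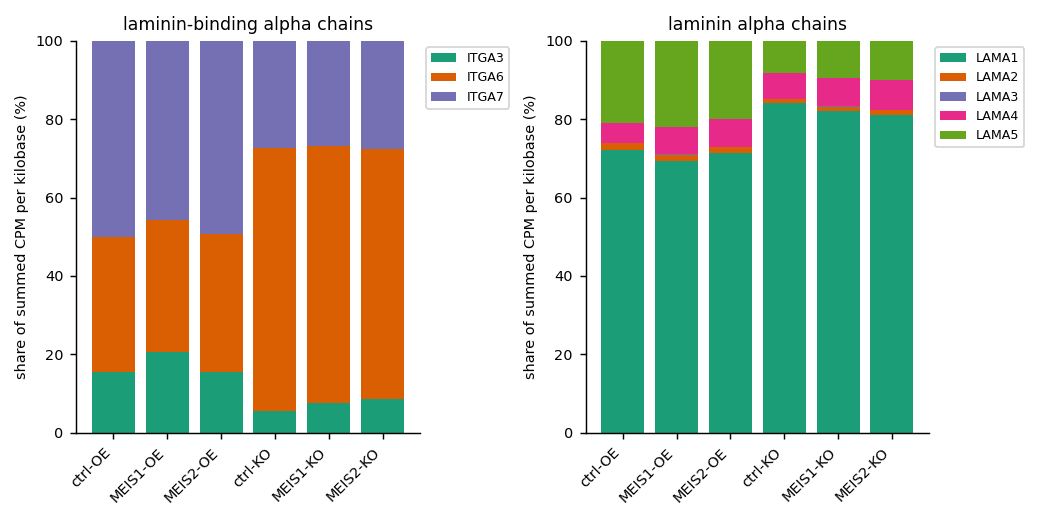
Mean share (vertical axis, in percent) of each chain in the summed CPM per kilobase of the laminin-binding integrin alpha chains (left) and of the laminin alpha chains (right), by group. ITGA6 is the widest band on the left in the 3 knockout groups and ITGA7 in the 3 activation groups, and LAMA1 is the widest band on the right in all 6 groups.

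Of the remaining alpha chains, ITGA5 (chromosome 12, 54789045 to 54813050), the fibronectin receptor chain, had 211, 224 and 244 CPM in ctrl-OE and 97.1, 116 and 128 CPM in ctrl-KO, without overlap (log2 fold change 0.98 ± 0.0798, adjusted p = 2.45e-13). ITGAV, its RGD-binding relative, moved the other way (log2 fold change -0.22 ± 0.0501, adjusted p = 0.000328). Scaled by total count in place of TMM, ITGAV had means closer together, at 141 ± 6.56 CPM in ctrl-OE and 149 ± 2.60 CPM in ctrl-KO (SD). The collagen receptor chains were split: ITGA2 ranged from 8.56 to 13.1 CPM (median 11.4) in ctrl-OE and from 12.8 to 15.9 CPM (median 14.4) in ctrl-KO (log2 fold change -0.37 ± 0.0897, adjusted p = 0.000688). ITGA1 was lower as well (-0.26 ± 0.0978), whereas ITGA10 (0.86 ± 0.252) and ITGA11 (0.97 ± 0.378, adjusted p = 0.030) were higher, all with overlapping ranges. The calls of ITGA1 (adjusted p between 0.0557 and 0.0821) and ITGA11 (between 0.051 and 0.151) were lost without number 2, 3 or 5. ITGA9 ranged from 10.7 to 11.99 CPM (median 11.0) in ctrl-OE and from 14.8 to 16.3 CPM (median 15.9) in ctrl-KO (log2 fold change -0.50 ± 0.0670, adjusted p = 4.75e-08).

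ITGB8 (chromosome 7, 20370325 to 20455377), which with alphaV frees active TGF-beta from its latent form and is known from neural progenitors, fell most. It had 22.0, 24.7 and 26.1 CPM in ctrl-OE and 61.2, 66.1 and 71.3 CPM in ctrl-KO (log2 fold change -1.44 ± 0.109, adjusted p = 4.1e-14), and the groups were far apart. ITGB1 was not called: it had 595, 652 and 714 CPM in ctrl-OE and 569, 594 and 662 CPM in ctrl-KO, with overlap. It was called higher in ctrl-OE when only these groups were fitted (adjusted p = 0.0268) and without number 2 (log2 fold change 0.19, adjusted p = 0.00586). Scaled by total count, ITGB1 had means of 692 ± 48.4 CPM in ctrl-OE and 571 ± 25.7 CPM in ctrl-KO (SD). ITGB4, which pairs with alpha6 in the hemidesmosomes of epithelia, had 0.313 to 0.609 CPM in ctrl-OE and 0 to 0.289 CPM in ctrl-KO (log2 fold change 1.54 ± 0.410, adjusted p = 0.00169).

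Of the integrin chains known from leukocytes, ITGAX, ITGB2 and ITGB7 were low in all groups and higher in ctrl-OE. ITGAX, an alpha chain of dendritic cells and macrophages, had 156 counts over the 6 ctrl-OE libraries (0.889 to 1.57 CPM, median 1.10) and 4 over the 6 ctrl-KO libraries (0 to 0.0589 CPM, median 0.0481). The ratio of the summed counts, scaled by effective library size, was 32.5, with an exact 95% interval of 12.4 to 121 that covers counting error only. ITGB2 had 1.62, 1.98 and 2.48 CPM in ctrl-OE and 0.483, 0.582 and 0.956 CPM in ctrl-KO (log2 fold change 1.67 ± 0.210, adjusted p = 1.32e-08). ITGB7 had 25 counts in ctrl-OE (0.0468 to 0.404 CPM, median 0.133) and 5 in ctrl-KO (0 to 0.112 CPM, median 0.0240), with overlap (adjusted p = 0.0285). The call was lost without number 2, 5 or 6 (adjusted p between 0.0636 and 0.0877). Of its exon bases, 42.3% lie under exons of ZNF740 on the opposite strand, and since the strand setting of the counting is not given, reads of the 2 genes cannot be told apart. ITGAE had 19.7, 21.2 and 22.6 CPM in ctrl-OE and 21.2, 22.1 and 24.0 CPM in ctrl-KO, and was not called.

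The 8 leukocyte markers looked up summed to 9.12 to 12.8 CPM in ctrl-OE and 4.11 to 5.01 CPM in ctrl-KO, and CD68, a lysosomal protein also made outside leukocytes, accounted for 6.26 to 9.31 and 1.59 to 2.04 CPM of this. PTPRC (CD45), the pan-leukocyte marker, had at most 1 count in a ctrl-OE library and at most 2 in a ctrl-KO library, and CD3E at most 1 in either. Of the 6 epithelial markers, KRT5 and KRT14 had 0 counts in all groups and the sum was 0.563 to 1.13 CPM in ctrl-OE and 0.353 to 0.731 CPM in ctrl-KO. The part of other cells in these low chains was otherwise not tested.

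Among the laminins, alpha chains LAMA1 and LAMA4 fell in ctrl-OE. LAMA1 (chromosome 18, 6941741 to 7117796), the alpha chain of laminin-111 of the early embryo, had 116, 139 and 170 CPM in ctrl-OE and 284, 306 and 375 CPM in ctrl-KO (log2 fold change -1.18 ± 0.0759, adjusted p = 3.56e-16). LAMA4 (chromosome 6, 112429134 to 112576141), the alpha chain known from vessel and mesenchymal basement membranes, had 5.77, 7.31 and 8.23 CPM in ctrl-OE and 16.1, 17.8 and 20.3 CPM in ctrl-KO (log2 fold change -1.34 ± 0.0934, adjusted p = 3.64e-15). Neither overlapped. LAMA5, the alpha chain of most adult epithelial and vascular basement membranes, was not called and ranged widely (24.2 to 65.8 CPM in ctrl-OE). LAMA1 was the leading alpha chain in all groups, with a share of the summed CPM per kilobase of the 5 alpha chains of 82.2% to 86.0% in ctrl-KO and 66.2% to 78.2% in ctrl-OE.

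Of the beta chains, LAMB1 fell (log2 fold change -0.25 ± 0.0440) and LAMB2 rose. Scaled by total count, LAMB1 had means of 175 ± 8.46 CPM in ctrl-OE and 189 ± 4.86 CPM in ctrl-KO (SD). LAMB2, the beta chain of synapse and vessel laminins, had 185, 199.9 and 259 CPM in ctrl-OE and 118, 162 and 184 CPM in ctrl-KO (log2 fold change 0.39 ± 0.115, adjusted p = 0.0039), and the lowest ctrl-OE library was above the highest ctrl-KO library. LAMB3, a chain of the epithelial laminin-332, had 9 counts over the ctrl-OE libraries and 0 over the ctrl-KO libraries (0 to 0.186 CPM, median 0.0457, in ctrl-OE). With a floor of 3 counts in place of 0 in ctrl-KO, LAMB3 had a ratio of counts of 2.50. Without the floor, the chain had an exact lower 95% limit of the ratio of 1.64 for counting error. Its fitted fold change rests on the prior count, and its call at an adjusted p = 0.0111 was lost with DESeq2 (adjusted p = 0.0811).

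Of the gamma chains, LAMC1 (chromosome 1, 182992555 to 183114727) had 1105, 1184 and 1312 CPM in ctrl-OE and 1530, 1557 and 1673 CPM in ctrl-KO, without overlap (log2 fold change -0.39 ± 0.0488, adjusted p = 9.68e-09). LAMC3 ranged from 1.08 to 2.20 CPM in ctrl-OE and from 1.01 to 2.57 CPM in ctrl-KO and was not called.

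MEIS1-OE raised 6 of the 34 tested chains against ctrl-OE and lowered 1, where 5.52% of all tested genes were called higher and 3.58% lower. The raised chains were the alpha chains ITGA3, ITGA5 and ITGA11, the beta chains ITGB2 and ITGB4, and LAMA4. The median log2 fold change was -0.05 for the chains and 0.00 for all tested genes.

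**Figure D4:**
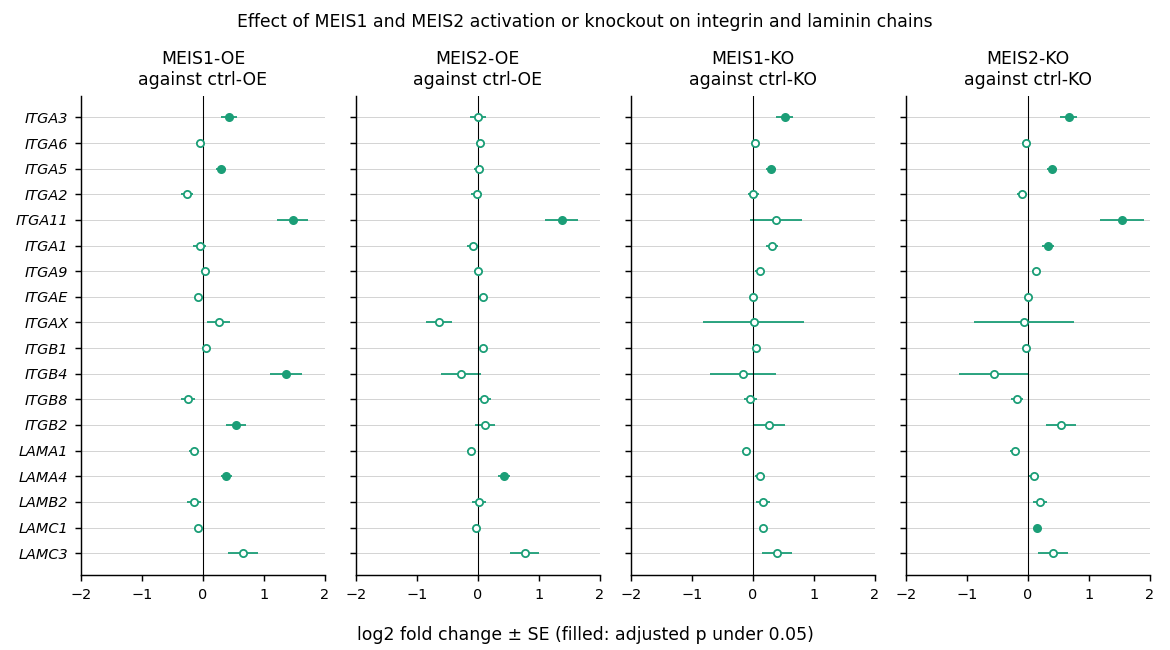
Log2 fold change (horizontal axes) with SE bars of named chains in MEIS1-OE and MEIS2-OE against ctrl-OE and in MEIS1-KO and MEIS2-KO against ctrl-KO. Symbols are filled at an adjusted p under 0.05. ITGA11 is filled in 3 of the 4 panels and lies between 1.37 and 1.54 there, and ITGA3 and ITGA5 are filled in 3 panels and near 0 in MEIS2-OE.

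ITGA11 (chromosome 15, 68588870 to 68724502), a collagen I receptor chain of fibroblasts and mesenchymal cells, rose most. It had 0.453, 1.06 and 1.26 CPM in MEIS1-OE and 0.141, 0.331 and 0.537 CPM in ctrl-OE (log2 fold change 1.47 ± 0.259, adjusted p = 8.15e-05). Only the lowest MEIS1-OE library lay within the range of ctrl-OE. The level was low in both groups, with 125 and 48 counts over 6 libraries. The 7 fibroblast or mesenchymal markers summed to 378 to 484 CPM in MEIS1-OE and 347 to 546 CPM in ctrl-OE. Of the 7, PDGFRB rose (log2 fold change 0.30 ± 0.0751, adjusted p = 0.00548) and the others were not called. Their part in the level of ITGA11 was not tested.

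ITGA3 had 29.3, 47.3 and 58.4 CPM in MEIS1-OE and 29.1, 33.3 and 40.0 CPM in ctrl-OE (log2 fold change 0.43 ± 0.128, adjusted p = 0.0269). The lowest value belonged to MEIS1-OE replicate 3, and without that library the log2 fold change was 0.53 (adjusted p = 0.00164). The call did not hold when numbers 1, 2, 4 or 5 were left out of every group or when only these 2 groups were fitted, with adjusted p between 0.0566 and 0.194. ITGA5 had 213, 290 and 310 CPM in MEIS1-OE and 211, 224 and 244 CPM in ctrl-OE (log2 fold change 0.30 ± 0.0783, adjusted p = 0.0102), and its lowest library was again replicate 3, without which the change was 0.36 (adjusted p = 0.00048). Without number 4 in every group its adjusted p was 0.107.

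ITGB4 (chromosome 17, 73717408 to 73753899) had 0.705, 1.28 and 1.501 CPM in MEIS1-OE and 0.313, 0.443 and 0.609 CPM in ctrl-OE (log2 fold change 1.36 ± 0.267, adjusted p = 0.000383). All MEIS1-OE libraries were above all ctrl-OE libraries, at 147 and 61 counts over the groups. ITGB2 had 2.37, 2.83 and 3.87 CPM in MEIS1-OE and 1.62, 1.98 and 2.48 CPM in ctrl-OE (log2 fold change 0.54 ± 0.159, adjusted p = 0.0222). The leukocyte markers summed to 10.6 to 15.5 CPM in MEIS1-OE against 9.12 to 12.8 CPM in ctrl-OE, with at most 2 counts of PTPRC in a MEIS1-OE library, and 3 of the 8 markers, led by CD68, rose. The call of ITGB2 was lost without number 4 (adjusted p = 0.0743) or 5 (adjusted p = 0.189), and 4.15% of its exon bases lie under ITGB2-AS1 on the opposite strand.

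LAMA4 had 7.88, 9.13 and 11.7 CPM in MEIS1-OE and 5.77, 7.31 and 8.23 CPM in ctrl-OE (log2 fold change 0.39 ± 0.0963, adjusted p = 0.00597). The ranges overlapped, and without number 3 in every group the adjusted p was 0.0944. LAMC3, with 1.499, 2.43 and 3.09 CPM in MEIS1-OE against 1.08, 1.39 and 2.20 CPM in ctrl-OE, had a log2 fold change of 0.66 ± 0.239 and was not called (adjusted p = 0.0819), but was with the replicate block (adjusted p = 0.0496) and without number 6 (0.0266). The 7 endothelial markers summed to 113 to 155 CPM in MEIS1-OE and 107 to 135 CPM in ctrl-OE, and 0 of them were called by edgeR; their part in the level of LAMA4 was not tested.

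Apart from ITGA5, chains with high levels gave small differences in MEIS1-OE: LAMC1 had 1029, 1149 and 1251 CPM (log2 fold change -0.08 ± 0.0487), ITGB1 609, 682 and 750 CPM (0.04 ± 0.0559), LAMB2 138, 193 and 216 CPM (-0.15 ± 0.114) and LAMA1 103, 126 and 148 CPM (-0.15 ± 0.0756), none of them called. ITGA6 with 44.3 to 54.7 CPM and ITGA9 with 9.99 to 13.4 CPM were not called either. ITGB8 had 15.3, 19.2 and 31.9 CPM in MEIS1-OE, the highest in replicate 3. Its log2 fold change was -0.25 ± 0.112 (adjusted p = 0.191), and without that library -0.41 (adjusted p = 0.00156). ITGA2 with 8.04, 9.09 and 11.8 CPM likewise went from -0.26 (adjusted p = 0.071) to -0.34 (adjusted p = 0.00806) without replicate 3 of MEIS1-OE, and it was also called by DESeq2 with all libraries (-0.27, adjusted p = 0.0364). LAMC3 went from 0.66 to 0.74 (adjusted p = 0.039) without MEIS1-OE replicate 3.

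**Figure D5:**
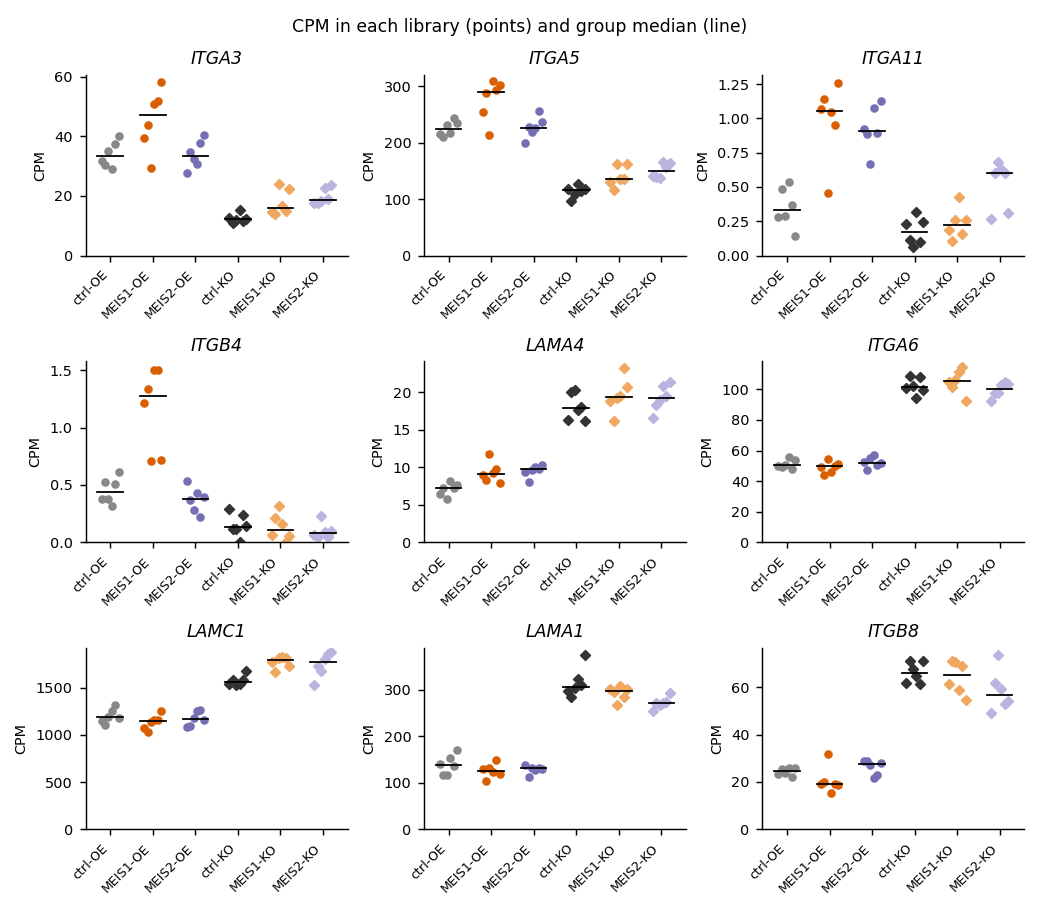
CPM of 9 chains (vertical axes, from 0) in each of the 6 libraries of a group (points) with the group median (line). ITGB4 separates MEIS1-OE from ctrl-OE, and ITGA3 and ITGA5 of MEIS2-KO lie above ctrl-KO without overlap.

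MEIS2-OE raised 2 chains, ITGA11 and LAMA4, and lowered 0 by edgeR, where 1.07% of all tested genes were called higher and 0.279% lower. At an unadjusted p under 0.05 there were 3 chains higher and 2 lower, and DESeq2 called 2 higher and 0 lower. ITGA11 had 0.667, 0.910 and 1.12 CPM in MEIS2-OE and 0.141, 0.331 and 0.537 CPM in ctrl-OE (log2 fold change 1.37 ± 0.263, adjusted p = 0.00131), and the groups did not overlap. LAMA4 had 7.996, 9.75 and 10.4 CPM in MEIS2-OE and 5.77, 7.31 and 8.23 CPM in ctrl-OE (log2 fold change 0.42 ± 0.0962, adjusted p = 0.0103), with overlap. Without numbers 1, 3 or 5 in every group its adjusted p was between 0.0547 and 0.0681. Both chains are among the 6 that rose in MEIS1-OE, but both comparisons use the same 6 ctrl-OE libraries. The endothelial markers summed to 130.3 to 171 CPM in MEIS2-OE against 107 to 135 CPM in ctrl-OE, and 1 of the 7, KDR, rose (log2 fold change 0.36 ± 0.0850, adjusted p = 0.0137); their part in the level of LAMA4 was not tested.

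LAMC3 had the next smallest p in MEIS2-OE, with 1.95, 2.35 and 3.86 CPM (log2 fold change 0.76 ± 0.237, adjusted p = 0.142). ITGA3, with 27.6, 33.5 and 40.6 CPM, had a log2 fold change of 0.00 ± 0.129, and ITGA5, with 199, 227 and 256 CPM, of 0.01 ± 0.0784. ITGB4 had 0.224, 0.381 and 0.536 CPM, with a log2 fold change of -0.28 ± 0.330 that was not called. Of the abundant chains, LAMC1 ranged from 1087 to 1259 CPM, ITGB1 from 622 to 795 CPM, LAMB2 from 185 to 263 CPM, LAMA1 from 113 to 139 CPM and ITGA6 from 47.1 to 57.4 CPM, all overlapping ctrl-OE. The median log2 fold change was -0.02 for the chains and -0.01 for all tested genes.

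In MEIS2-KO, 5 chains rose against ctrl-KO and 0 fell by edgeR, whereas over all tested genes more fell (5.98%) than rose (4.04%). At an unadjusted p under 0.05, 7 chains were higher and 1, LAMA1, was lower, and DESeq2 called 5 higher and 0 lower. The median log2 fold change of the chains was 0.12, against -0.01 for all tested genes. The chains that rose were ITGA3, ITGA5, ITGA1, ITGA11 and LAMC1. Of the 10 neural stem cell markers, 1 (VIM) rose and 4, led by PAX6, fell in MEIS2-KO, and 2 of 7 mesenchymal and 2 of 7 endothelial markers rose. The part of these markers in the results on the chains was not tested.

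ITGA3 had 17.5, 18.5 and 23.6 CPM in MEIS2-KO and 10.9, 12.1 and 15.1 CPM in ctrl-KO (log2 fold change 0.67 ± 0.141, adjusted p = 0.00156). ITGA5 had 137, 149 and 165 CPM in MEIS2-KO and 97.1, 116 and 128 CPM in ctrl-KO (log2 fold change 0.40 ± 0.0797, adjusted p = 0.00102). In both, every MEIS2-KO library was above every ctrl-KO library, and both adjusted p stayed under 0.05 in all alternative fits. ITGA11 had 0.268, 0.604 and 0.679 CPM in MEIS2-KO and 0.0589, 0.172 and 0.314 CPM in ctrl-KO (log2 fold change 1.54 ± 0.357, adjusted p = 0.00409). Its ranges overlapped, at 63 and 20 counts over the groups, and the largest adjusted p of its alternatives was 0.0489. The mesenchymal markers summed to 790 to 1028 CPM in MEIS2-KO and 713 to 927 CPM in ctrl-KO. Of the 7, COL1A1 (log2 fold change 1.06 ± 0.215, adjusted p = 0.00114) and COL1A2 (0.27 ± 0.0851, adjusted p = 0.039) rose, COL1A1 from 24.0 to 46.2 CPM in ctrl-KO to 53.4 to 95.7 CPM in MEIS2-KO without overlap. Their part in the level of ITGA11 was not tested here either.

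ITGA1 (chromosome 5, 52083750 to 52255039), a receptor chain for collagens IV and I, had 5.49, 7.22 and 7.71 CPM in MEIS2-KO and 5.13, 5.43 and 5.998 CPM in ctrl-KO (log2 fold change 0.33 ± 0.0953, adjusted p = 0.020). Without numbers 4, 5 or 6 its adjusted p was between 0.0543 and 0.0771, and 2.69% of its exon bases are shared with PELO. LAMC1 had 1525, 1767 and 1874 CPM in MEIS2-KO and 1530, 1557 and 1673 CPM in ctrl-KO, with overlap (log2 fold change 0.15 ± 0.0487, adjusted p = 0.0408). This call was lost without any one of the numbers 2 to 6, with adjusted p between 0.0682 and 0.157. LAMA1 had 254, 271 and 293 CPM in MEIS2-KO and 284, 306 and 375 CPM in ctrl-KO (log2 fold change -0.22 ± 0.0746, adjusted p = 0.0576). Its adjusted p was 0.0397 without number 2, 0.0251 with a replicate block and 0.0182 when ctrl-KO and MEIS2-KO were fitted alone, so that it was called lower in these fits.

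In MEIS1-KO, ITGA3 and ITGA5 were called higher and 0 chains lower by edgeR, where 1.03% of all tested genes were higher and 0.432% lower. At an unadjusted p under 0.05, 6 chains were higher and 0 lower, and DESeq2 called 3 higher and 0 lower. ITGA3 had 13.8, 15.9 and 24.0 CPM in MEIS1-KO (log2 fold change 0.52 ± 0.142, adjusted p = 0.0491) and ITGA5 116, 135 and 162 CPM (0.30 ± 0.0798, adjusted p = 0.0484). Both ranges overlapped ctrl-KO. Replicates 3 and 6 of MEIS1-KO stood highest, at 24.0 and 22.4 CPM of ITGA3 and 162 CPM each of ITGA5. The other MEIS1-KO libraries had 13.8 to 16.7 CPM of ITGA3 and 116 to 135 CPM of ITGA5. MEIS1-KO replicate 6 was also the library farthest from its group (0.326). Both calls were lost when any 1 replicate number was left out of every group and when only the 2 groups were fitted, with adjusted p between 0.0657 and 0.222. Of the mesenchymal markers COL1A1 rose, from 24.0 to 46.2 CPM in ctrl-KO to 43.5 to 102 CPM in MEIS1-KO (log2 fold change 0.82 ± 0.215, adjusted p = 0.0408). The endothelial markers summed to 170.4 to 226 CPM in MEIS1-KO and 170 to 186 CPM in ctrl-KO, with none of the 7 called (KDR 0.28 ± 0.0843, adjusted p = 0.0862). Their part in the levels of ITGA3 and ITGA5 was not tested. The controls are those of the MEIS2-KO comparison, so the 2 comparisons are not independent. LAMC1, with 1665, 1791 and 1824 CPM, had the next smallest p (log2 fold change 0.17 ± 0.0487, adjusted p = 0.0665). It was called with the replicate block (adjusted p = 0.00873), the compared groups alone (0.0206), DESeq2 (0.0283) and filterByExpr (0.0435).

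ITGA11 had 0.105, 0.222 and 0.428 CPM in MEIS1-KO (log2 fold change 0.38 ± 0.429, adjusted p = 0.815). In the knockout groups the other chains named here overlapped ctrl-KO: ITGB1 had 568 to 680 CPM in MEIS1-KO and 569 to 625 CPM in MEIS2-KO, ITGA6 92.7 to 115 and 92.4 to 105 CPM, ITGB8 54.5 to 71.2 and 49.2 to 73.6 CPM, LAMB2 142 to 246 and 160 to 208 CPM, and LAMA4 16.2 to 23.2 and 16.5 to 21.4 CPM. ITGAX had 4 counts over each of the knockout groups, and LAMB3 1 count in each of MEIS1-KO and MEIS2-KO.

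The activation and the knockout comparisons of a MEIS gene use separate libraries and can therefore be set side by side. ITGA3 and ITGA5 were higher both in MEIS1-OE (0.43 and 0.30 on the log2 scale) and in MEIS1-KO (0.52 and 0.30), each against its own control, and ITGA11 was higher both in MEIS2-OE (1.37) and in MEIS2-KO (1.54). The calls of ITGA3 and ITGA5 in MEIS1-KO and in MEIS1-OE were lost in the fits named above, that of ITGA5 in MEIS1-OE without number 4 (adjusted p = 0.107). The other pairs of these chains had a called and an uncalled value. ITGA3 and ITGA5 were at 0.00 and 0.01, not called, in MEIS2-OE and at 0.67 and 0.40 in MEIS2-KO. ITGA11 was at 1.47 in MEIS1-OE and at 0.38, not called, in MEIS1-KO. Such differences are tested by the contrasts below. There edgeR called that of ITGA3 for MEIS2, but neither that of ITGA5 for MEIS2 nor that of ITGA11 for MEIS1.

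The contrast of a MEIS gene is its activation effect minus its knockout effect, so that changes in the same direction cancel. In the MEIS1 contrast 0 chains were higher and 3 were lower by edgeR, with 2.35% of all tested genes higher and 1.14% lower; at an unadjusted p under 0.05 there were 3 higher and 6 lower, and DESeq2 called 0 and 3. Among them LAMA2, the alpha chain of muscle and Schwann cell laminin, had -0.54 ± 0.154 (adjusted p = 0.0388), from -0.23 in MEIS1-OE and 0.31 in MEIS1-KO, neither called. Its levels were 3.67, 4.42 and 5.22 CPM in MEIS1-OE, 4.72, 4.96 and 6.05 CPM in ctrl-OE, 6.35, 6.79 and 7.59 CPM in MEIS1-KO and 4.84, 5.49 and 6.55 CPM in ctrl-KO. LAMC1 had -0.25 ± 0.0689 (adjusted p = 0.0315). The call of LAMA2 was lost without numbers 1, 2, 3, 5 or 6 (adjusted p between 0.0562 and 0.251) and that of LAMC1 without 1, 3, 4 or 5 (between 0.0736 and 0.16). ITGA3 and ITGA5 had contrasts of -0.10 ± 0.191 and 0.00 ± 0.111.

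In the MEIS2 contrast 0 chains were higher and 1 lower by edgeR, with 1.39% of all tested genes higher and 1.18% lower; at an unadjusted p under 0.05 there were 1 higher and 6 lower, and DESeq2 called 0 and 2. ITGA3 was the lower chain, at -0.67 ± 0.191 (adjusted p = 0.0457), from 0.00 in MEIS2-OE and 0.67 in MEIS2-KO. Its call was lost without any of numbers 1, 2, 4, 5 and 6 (adjusted p between 0.0846 and 0.167). ITGA5 lay next to the threshold at -0.39 ± 0.112 (adjusted p = 0.0506) and was called with RLE size factors, filterByExpr, DESeq2, the replicate number as a block, the groups of the contrast alone and without number 3 (adjusted p between 0.00812 and 0.0480). ITGA11 had a MEIS2 contrast of -0.17 ± 0.431 (adjusted p = 0.886).

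MEIS1-OE and MEIS2-OE were also compared directly. In MEIS1-OE 5 chains were higher and 1 was lower than in MEIS2-OE, where 4.93% of all tested genes were higher and 2.82% lower, and all 6 chains were integrins. ITGB4 differed most (log2 fold change 1.64 ± 0.282, adjusted p = 5.67e-05), and all MEIS1-OE libraries were above all MEIS2-OE libraries. ITGAX had 0.956, 1.41 and 1.64 CPM in MEIS1-OE and 0.536, 0.724 and 1.02 CPM in MEIS2-OE (0.89 ± 0.205, adjusted p = 0.00272). ITGB3, a beta chain of platelet and osteoclast integrins, had 1.54, 1.83 and 2.04 CPM in MEIS1-OE and 0.744, 1.15 and 1.57 CPM in MEIS2-OE (0.62 ± 0.151, adjusted p = 0.00488). The call of ITGB3 was lost without number 4 (adjusted p = 0.0517), and 33.2% of its exon bases are shared with another protein-coding gene model on the same strand.

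ITGA3 (0.43 ± 0.128, adjusted p = 0.0306) and ITGA5 (0.28 ± 0.0784, adjusted p = 0.0156) were higher in MEIS1-OE than in MEIS2-OE, with overlapping ranges. The call of ITGA3 was lost with the groups alone and without number 1, 2, 4 or 5 (adjusted p between 0.0698 and 0.189), and that of ITGA5 without number 1 (0.0694) or 4 (0.124). ITGB8 was lower (-0.35 ± 0.112, adjusted p = 0.0425), with 21.7, 27.7 and 29.0 CPM in MEIS2-OE. This call was lost with the groups alone and without number 1, 2, 4, 5 or 6 (adjusted p between 0.0956 and 0.223). Without MEIS1-OE replicate 3 the difference of ITGB8 was -0.52 (adjusted p = 8.26e-05), and ITGA2 (-0.32, adjusted p = 0.0157, with all libraries -0.24 and 0.122) and ITGB2 (0.48, adjusted p = 0.0498, with all libraries 0.42 and 0.108) were called as well. ITGA11 and LAMA4, which rose in both groups, did not differ between them beyond their error (0.10 ± 0.220 and -0.04 ± 0.0946).

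MEIS1-KO and MEIS2-KO differed in 0 chains by edgeR and 0 by DESeq2, and 2 chains had an unadjusted p under 0.05. Over all tested genes 0.0102% were higher and 0.00508% lower in MEIS1-KO. The 2 chains were ITGA11 (log2 fold change -1.16 ± 0.337, unadjusted p = 0.00142) and ITGB3 (0.36 ± 0.164, unadjusted p = 0.035), both with an adjusted p of 0.855.

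Genes around the chains were counted in 3 lists, with the same test over all genes. The shares of all tested genes called higher and lower, against which the counts are to be read, were 5.52% and 3.58% in MEIS1-OE, 1.07% and 0.279% in MEIS2-OE, 1.03% and 0.432% in MEIS1-KO, and 4.04% and 5.98% in MEIS2-KO. Of 40 tested genes of the integrin adhesion complex, which links beta chain tails to actin, 11 rose in MEIS2-KO and all 11 calls were upward, with a median log2 fold change of 0.16 against -0.01 over all tested genes. PXN, the scaffold paxillin, had the smallest p there (0.32 ± 0.0584, adjusted p = 0.000359). In the same comparison 2 of 7 mesenchymal markers (COL1A1 and COL1A2) and 2 of 7 endothelial markers (KDR and CDH5) rose, and of 10 neural stem cell markers 1 rose (VIM) and 4 fell, PAX6 most; their part in the counts of these lists was not tested. In MEIS1-KO 3 of the 40 rose, in MEIS1-OE 5 rose and 1 fell (TES, testin, 0.36 ± 0.0480; TLN2, talin-2, -0.23 ± 0.0702), and in MEIS2-OE 1 rose (TES, 0.30 ± 0.0480).

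Of 33 tested basement membrane partners of laminin, 3 rose and 3 fell in MEIS1-OE (over all tested genes 5.52% and 3.58%), led by COL4A1, a collagen IV chain (0.84 ± 0.0756), and NID2, nidogen-2 (-0.39 ± 0.0720). In MEIS2-OE 2 rose (COL4A1, 0.36 ± 0.0753). SPARC, a collagen-binding matrix protein, rose in MEIS1-KO (0.22 ± 0.0561), the 1 gene of the list called there. In MEIS2-KO 2 rose and 2 fell, led by SPARC (0.23 ± 0.0561) and NID2 (-0.26 ± 0.0697).

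Of 35 tested other integrin ligands, 5 rose and 5 fell in MEIS1-OE (over all tested genes 5.52% and 3.58%), led by ICAM1, the ligand of ITGB2 integrins (1.24 ± 0.0674), and FBLN5, fibulin-5 (-0.89 ± 0.153). In MEIS2-OE 1 fell (NOV, a matricellular protein, -0.58 ± 0.143). SPP1, osteopontin, a ligand of alphaV and alpha9 integrins, rose in MEIS1-KO (0.71 ± 0.135), the 1 call there. In MEIS2-KO 5 rose and 1 fell, led by SPP1 (0.96 ± 0.133) and JAM2, a junctional adhesion molecule (-0.42 ± 0.0957), with a median of 0.27 for this list.

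Promoters of the chains were searched for the hexamer TGACAG on both strands, the core known for MEIS and related TALE homeobox proteins; the search motif overlaps with no other, since it was the only one. RefSeq windows of 300 bases (250 before to 50 from the start site on, GRCh38.p14) were at hand for 23 of the 34 tested chains, and ITGA3, ITGB2, ITGB3, ITGB4 and ITGAX are among those not searched. The motif was in 6 of them (26.1%), against 1694 of 12244 windows of tested genes (13.8%). The 6 were ITGA1, ITGA11, ITGAE, ITGB7, LAMB3 and LAMB4. ITGA11, the chain that rose in MEIS1-OE, MEIS2-OE and MEIS2-KO, and ITGA1, which rose in MEIS2-KO, carry the motif on the antisense strand, 26 and 95 bases before the start. The other 4 carriers, ITGAE, ITGB7, LAMB3 and LAMB4, were called by edgeR in no MEIS comparison or contrast. DESeq2 called ITGAE lower in MEIS1-OE than in MEIS2-OE (log2 fold change -0.17, adjusted p = 0.0403). The windows of ITGA5, ITGB8, LAMA2, LAMA4 and LAMC1, which edgeR called in at least 1 MEIS comparison or contrast, do not hold these letters. The windows of ITGA11 and ITGA1 with the motif, and of ITGA5 and LAMA4 without it, are shown because these are chains called in a MEIS comparison. They are written 5′ to 3′ on the strand of the gene, and capitals mark the motif, which reads CTGTCA where it is on the antisense strand. The windows lie at chr15:68432114-68432413 (ITGA11, minus strand), chr5:52787666-52787965 (ITGA1, plus strand), chr12:54419217-54419516 (ITGA5, minus strand) and chr6:112254518-112254817 (LAMA4, minus strand). A match is a description of the sequence only.
ITGA11: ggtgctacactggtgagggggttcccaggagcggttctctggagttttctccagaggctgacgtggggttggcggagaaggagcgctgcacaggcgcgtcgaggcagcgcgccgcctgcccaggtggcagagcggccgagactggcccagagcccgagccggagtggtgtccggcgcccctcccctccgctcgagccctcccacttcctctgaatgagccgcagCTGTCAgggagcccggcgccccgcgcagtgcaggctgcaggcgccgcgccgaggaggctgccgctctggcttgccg
ITGA1: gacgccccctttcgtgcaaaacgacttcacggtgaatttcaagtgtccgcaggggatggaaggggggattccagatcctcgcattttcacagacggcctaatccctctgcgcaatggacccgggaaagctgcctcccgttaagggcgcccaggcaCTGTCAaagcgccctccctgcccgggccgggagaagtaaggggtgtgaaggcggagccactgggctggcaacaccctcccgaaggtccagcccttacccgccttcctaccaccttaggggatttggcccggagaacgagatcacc
ITGA5: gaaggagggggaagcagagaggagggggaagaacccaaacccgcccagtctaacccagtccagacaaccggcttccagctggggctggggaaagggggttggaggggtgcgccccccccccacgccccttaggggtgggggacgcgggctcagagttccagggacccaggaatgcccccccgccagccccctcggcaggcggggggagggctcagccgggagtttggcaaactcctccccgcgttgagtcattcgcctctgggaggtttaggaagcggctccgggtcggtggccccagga
LAMA4: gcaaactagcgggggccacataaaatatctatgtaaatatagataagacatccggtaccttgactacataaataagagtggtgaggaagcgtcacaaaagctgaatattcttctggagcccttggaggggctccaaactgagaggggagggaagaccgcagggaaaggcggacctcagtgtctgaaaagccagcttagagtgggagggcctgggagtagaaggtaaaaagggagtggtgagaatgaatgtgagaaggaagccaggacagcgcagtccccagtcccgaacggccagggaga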

How the data were processed

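RNA from 36 libraries of human neural stem cells, 6 per group, was read as stranded poly-A libraries with paired reads. Per the labels and the methods of the study, the authors aligned reads to hg19 with STAR and counted them per gene with HTSeq 0.6.0. The version of STAR is given as 2.4.2a in the design text and as 2.7.0a in the submitters' processing notes, which also name Trimmomatic 0.39. The gene annotation and the strand setting of the counting are not given in the sources used here. The deposited values are raw counts per gene symbol, and counts of overlapping genes may be shared or dropped.

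A gene was fitted if its counts over the 36 libraries reached 10 in sum. The fit used edgeR 4.0.16 (R 4.3.3) with TMM library sizes and held all 6 groups in 1 quasi-likelihood model with no covariate, and p-values were adjusted over all tested genes. Columns of CPM were computed from the counts with TMM-scaled library sizes, and the prior count for fold changes was 0.125. SE was taken from the fold change and the F statistic of its test. The test was also run on simulated counts with a common dispersion, with changes set only in genes above a minimum level. That run does not cover the chains with few counts or the libraries that lay apart. Levels were divided by exon length from GENCODE gene models on GRCh37, and promoters were read from RefSeq windows on GRCh38.p14. Intervals and floors (95% and 3 counts) cover counting error only.

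Values are given for chains past an adjusted p of 0.05 and a log2 fold change of 0.58 in a MEIS comparison or contrast, the 3 with the smallest p in each comparison with a control, the leading chain of each role by level and the chains that differed most between controls. Other chains called in a comparison are named with their values as well, apart from results not reported here, whose genes still enter the counts. The members and gene lists were chosen with earlier results of these data known. Alternatives were RLE size factors, no filter, filterByExpr, DESeq2 1.42.0, a replicate block, the compared groups alone, a fold threshold and each replicate number left out. Leaving out MEIS1-OE replicate 3 alone was chosen after seeing the data.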

Additional observations from a re-analysis of the deposited data

Results flagged for a closer look

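In 11 of 120 groups of 6 libraries, 1 library lay apart from the others by Dixon's criterion at its 95% critical value, which chance alone meets in about 1 group in 20. In ctrl-KO these were ITGA3 in replicate 4 (15.1 CPM, next 12.4), ITGA9 in replicate 3 (14.8 CPM, next 15.7), ITGB1 in replicate 2 (662 CPM, next 603) and LAMC1 in replicate 6 (1673 CPM, next 1582). In MEIS1-OE both were replicate 3, the library farthest from its group: ITGB8 had 31.9 CPM there (next 19.8) and LAMB2 137.9 CPM (next 189). LAMC3 in MEIS2-OE replicate 6 had 3.86 CPM (next 2.48). The other 4 rest on few reads: ITGB4 in MEIS2-KO replicate 3 (0.226 CPM), ITGB7 in MEIS1-KO replicate 3 (0.157 CPM), and LAMB3 in MEIS1-KO replicate 2 (0.0524 CPM) and in MEIS2-KO replicate 6 (0.0514 CPM), the last pair being single counts.

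Effects that differed by the test of the difference itself (edgeR, adjusted p under 0.05) included the MEIS1 contrasts of LAMA2 (-0.54) and LAMC1 (-0.25), the MEIS2 contrast of ITGA3 (-0.67), and the differences between MEIS1-OE and MEIS2-OE of ITGB4 (1.64), ITGAX (0.89), ITGB3 (0.62), ITGA3 (0.43), ITGA5 (0.28) and ITGB8 (-0.35), all as log2 fold changes. In alternative fits the difference between MEIS1-OE and MEIS2-OE lost its call for ITGB8 in 6, ITGA3 in 5 and ITGA5 in 2 of them, and for ITGB3 without number 4 (adjusted p = 0.0517).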

How the results depend on the processing

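Of 48 calls of chains over the 9 comparisons, 28 held in every alternative fit that gave the chain a value, the fold threshold aside, and 20 were lost in at least 1, and 0 changed direction. With a log2 fold change above 0.58 also required, the number of called chains fell from 7 to 2 in MEIS1-OE, from 2 to 1 in MEIS2-OE, from 2 to 0 in MEIS1-KO, from 5 to 2 in MEIS2-KO, from 3 to 1 in the MEIS1 contrast and from 6 to 3 between MEIS1-OE and MEIS2-OE, and between the controls 11 higher and 4 lower were left of 12 and 10. With 1 replicate number left out of every group it was 4 to 8 in MEIS1-OE (10 without MEIS1-OE replicate 3 alone), 1 to 2 in MEIS2-OE, 0 to 0 in MEIS1-KO, 3 to 5 in MEIS2-KO, 1 to 2 in the MEIS1 contrast (3 without MEIS1-OE replicate 3 alone), 0 to 2 in the MEIS2 contrast and 2 to 7 between MEIS1-OE and MEIS2-OE (8 without MEIS1-OE replicate 3 alone); fewer libraries entered these fits. In the MEIS2 contrast 2 chains in place of 1 were called with RLE size factors, filterByExpr, DESeq2 and the contrast's groups alone, and in MEIS1-KO 1 in place of 2 with its groups alone; the cause was not tested.

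Same-numbered libraries had a mean correlation of deviations of 0.0361 (over 0.1 in 16 of 90 pairs), against -0.00732 for other numbers. A mean over all tested genes cannot exclude that libraries of the same number shared a batch. With the replicate block 8, 2, 3 and 6 chains were called in MEIS1-OE, MEIS2-OE, MEIS1-KO and MEIS2-KO, and 2 in the MEIS2 contrast. Scaling by total count moved 11 of 120 mean levels by over 1 SD. Depth limits what can be seen of ITGAX, ITGB7, LAMB3 and ITGB4 in the knockout groups, with at most 17 counts each over 6 libraries.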
